A study of Bos taurus with 4 samples.

Results

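Casein kinase 2 (CK2) is a serine and threonine kinase built from a dimer of regulatory beta subunits that binds catalytic alpha or alpha prime subunits. The 3 subunit genes, CSNK2A1 (alpha), CSNK2A2 (alpha prime) and CSNK2B (beta), were read by 5 probes of an array with 43794 probes and 15213 named genes. Probes belonged to the set when the platform annotation gave them 1 of these symbols. The set was chosen by an earlier result on these arrays, the log2 ratio between the ages of a CSNK2B probe, and the catalytic subunits were taken because they share its complex. All ratios between the ages are therefore given as descriptions, without a test.

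The samples were bovine blastocysts produced in vitro from slaughterhouse oocytes. The embryos had been fertilised with semen collected at 12 months of age or with semen collected at 16 months of age, and the study's design lists 4 bulls sampled at both ages. Each of 4 arrays carried the RNA of both ages. Arrays 1 and 2 held the 12-month RNA in the Cy5 channel, and arrays 3 and 4 held it in the Cy3 channel. The labels tie no bull to an array and give no number of embryos, and the RNA had been amplified before labelling. Age at collection and the time of collection cannot be told apart. The arrays are labelled as biological replicates.

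CK2 is active without a second messenger, and its many substrates lie in ribosome synthesis, translation, transcription, cell survival and WNT signalling. The beta subunit stabilises the tetramer and steers the choice of substrates, while either catalytic subunit can also act alone. In mice, loss of Csnk2b is lethal soon after implantation and loss of Csnk2a1 at mid-gestation, whereas loss of Csnk2a2 leaves males infertile. The probe sequences were not used here, so what each probe binds in the transcripts is not described.

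All 5 probes were clearly above background. Each lay over the level that 95% of the 153 negative control spots stayed under in 8 of 8 channel signals, where a channel signal is the reading of 1 age on 1 array. Of all 43794 probes, 19928 did so. The lowest reading of a member was 6.63 times the negative control level, for the dimmer CSNK2A2 probe (EMBV3_27503), and the highest was 155 times, for CSNK2A1 (EMBV3_13851). Of the probes tested, 94.6% were dimmer than the CSNK2A1 probe, 94.4% and 91.6% were dimmer than the CSNK2B probes (EMBV3_08468 and EMBV3_33962), and 84.3% and 84.0% were dimmer than the CSNK2A2 probes (EMBV3_20982 and EMBV3_27503). These shares place the spots on the array. They do not rank the transcripts, because probes differ in how well they bind. The median pixels of the member spots lay between 855 and 11335 on the scanner's scale, and 0 of the spots had been marked as ignored.

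Marker genes were set beside the blastocyst label. Of the trophectoderm markers 10 of 10 were above background in at least 4 of 8 channel signals, as were 6 of 6 markers of the inner cell mass and 7 of 7 measured markers of the primitive endoderm. Over all probes, 30986 of 43794 reached that level, so a count near this share says little about a cell type. A marker was counted by its best probe, while this share is per probe. Of 9 markers of the cumulus and granulosa cells around the oocyte 5 reached that level. CYP19A1, INHBA and STAR were above background in 8 of 8 channel signals, HSD3B1 in 7 and PTX3 in 5. FSHR was above it in 3, TNFAIP6 in 1, and AMH and HAS2 in 0. The summed intensity of the cumulus and granulosa list ran from 1926 to 3236 in the 12-month RNA, against 2128 to 2843 in the 16-month RNA. Oocyte and sperm transcripts reached that level for 5 of 6 and 5 of 6 measured markers. Their summed intensities ran from 1049 to 1129 and from 1080 to 1354 in the 12-month RNA, against 1017 to 1164 and 1038 to 1139 in the 16-month RNA. The part of other cells in the values below was not tested.

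The arrays as a whole set the scale for the subunits. In limma, 0 of 30986 probes (0%) passed an adjusted p of 0.05 for age in either direction, with a smallest adjusted p of 0.821, while 1799 had an unadjusted p under 0.05. Between pairs of arrays, the correlation of all probes' log2 ratios (12 over 16 months) was 0.33 for arrays 1 and 2 and -0.15 for arrays 3 and 4. For the other pairs it lay between -0.24 and 0.0080. These correlations are across probes of shared arrays, and probes are not independent replicates. The SD of a probe over the 4 arrays had a median of 0.21 on the log2 scale, with quartiles at 0.14 and 0.31.

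CSNK2A1, the broadly expressed catalytic alpha subunit, varied widely between arrays and had no common direction. Its normalised log2 intensity on arrays 1 to 4 was 13.39, 12.49, 13.41 and 12.22 in the 12-month RNA, against 13.04, 12.45, 12.48 and 12.72 in the 16-month RNA. The log2 ratios of 12 over 16 months were 0.35, 0.034, 0.93 and -0.50. Array 3 thus read 1.91-fold higher with 12-month semen and array 4 read 1.41-fold lower. The intensities of the ages overlapped.

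The mean CSNK2A1 ratio was 0.20 ± 0.60 (SD, n = 4), and 97.7% of the tested probes had a smaller SD. Array 3 carried the mean, which was -0.040 without it. Without array 4 it was 0.44. The means within the dye orientations lay close together, at 0.19 on the arrays with the 12-month RNA in Cy5 and 0.22 on those with it in Cy3, although the arrays of the second orientation had opposite signs. In bulk RNA of whole blastocysts, fewer cells of a type and less RNA per cell cannot be told apart.

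CSNK2A2, the alpha prime subunit with a known role in the shaping of sperm heads in mice, was read by a pair of probes of almost the same brightness. The brighter probe had log2 intensities of 10.23, 11.00, 10.83 and 10.81 in the 12-month RNA, against 10.51, 11.13, 11.14 and 10.58 in the 16-month RNA. Its log2 ratios were -0.28, -0.13, -0.31 and 0.23, with a mean of -0.12 ± 0.25. The dimmer probe had log2 intensities of 10.41, 10.94, 10.74 and 10.96 in the 12-month RNA, against 10.40, 11.09, 10.93 and 10.45 in the 16-month RNA. Its log2 ratios were 0.0049, -0.15, -0.19 and 0.51, with a mean of 0.044 ± 0.32 (both SD, n = 4). The values of the ages overlapped for both probes, and array 4 was the highest in ratio for both.

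The CSNK2A2 probes followed each other across arrays. The root mean square difference between their ratios was 0.21, against a median of 0.31 over the 1764 genes with exactly 2 tested probes. Without array 4 the means were -0.24 for the brighter and -0.11 for the dimmer probe, so the dimmer probe's mean lay below 0 in that case. Without array 3 the brighter probe's mean was -0.058, and without array 1 it was -0.069.

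CSNK2B, the regulatory beta subunit, was likewise read by a pair of probes, and they parted on array 4. The brighter probe had log2 intensities of 12.40, 12.81, 12.31 and 13.02 in the 12-month RNA, against 12.76, 13.34, 12.78 and 12.42 in the 16-month RNA. Its log2 ratios were -0.36, -0.52, -0.47 and 0.60, with a mean of -0.19 ± 0.53 (SD, n = 4). Arrays 1 to 3 lay close together and array 4 stood on the other side of 0, at 1.51-fold higher with 12-month semen. Without array 4 the mean was -0.45, and without array 2 it was -0.079.

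The dimmer CSNK2B probe was the even member of the set, and its ratio is the result on which the set was chosen. Its log2 intensities were 11.59, 12.26, 11.56 and 11.93 in the 12-month RNA, against 11.86, 12.61, 12.11 and 12.46 in the 16-month RNA. The intensities of the ages overlapped, but each array read lower in its 12-month channel. Its log2 ratios were -0.27, -0.35, -0.55 and -0.54, with a mean of -0.43 ± 0.14 (SD, n = 4), which is 1.35-fold lower. Of the probes tested, 99.4% had a mean ratio of smaller size and 23.9% had a smaller SD.

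Of the 5 probes 1 was below 0 on all 4 arrays and 0 were above 0 on all 4. Over all 30388 tested probes with a value on every array, 5.56% were below 0 on all 4 and 4.84% were above. The members were chosen with this contrast known, so nothing is read from their count. The mean within the dye orientation with 12-month RNA in Cy5 was -0.44 for the brighter and -0.31 for the dimmer CSNK2B probe. With 12-month RNA in Cy3 it was 0.063 for the brighter and -0.54 for the dimmer.

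**Figure D1:**
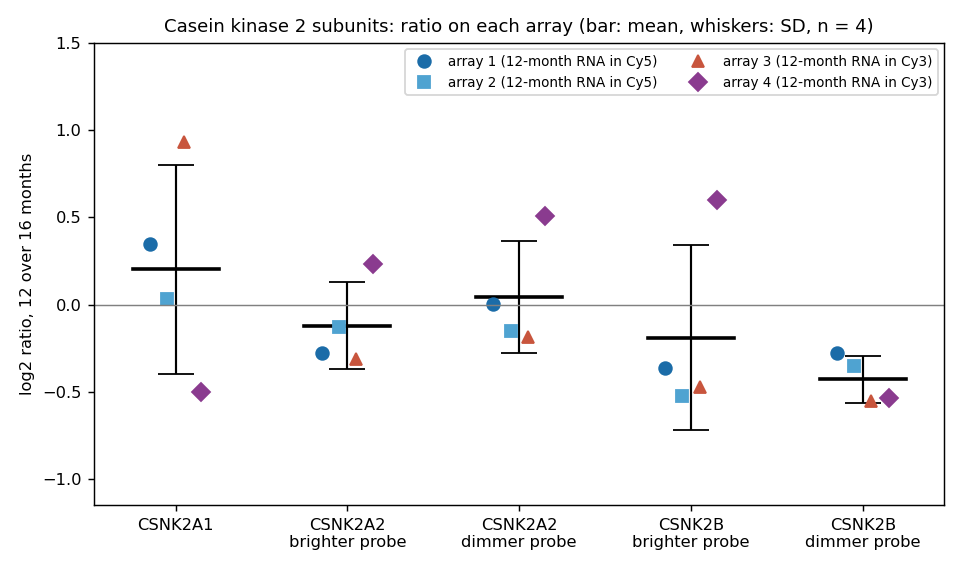
The y axis gives the log2 ratio of 12 over 16 months of the 5 probes of the CK2 subunits, each symbol being 1 array, with the mean as a bar and the SD as whiskers (n = 4). Array 4 lies above 0 for both CSNK2A2 probes and the brighter CSNK2B probe and below 0 for CSNK2A1 and the dimmer CSNK2B probe, whose 4 values run from -0.55 to -0.27.

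**Figure D2:**
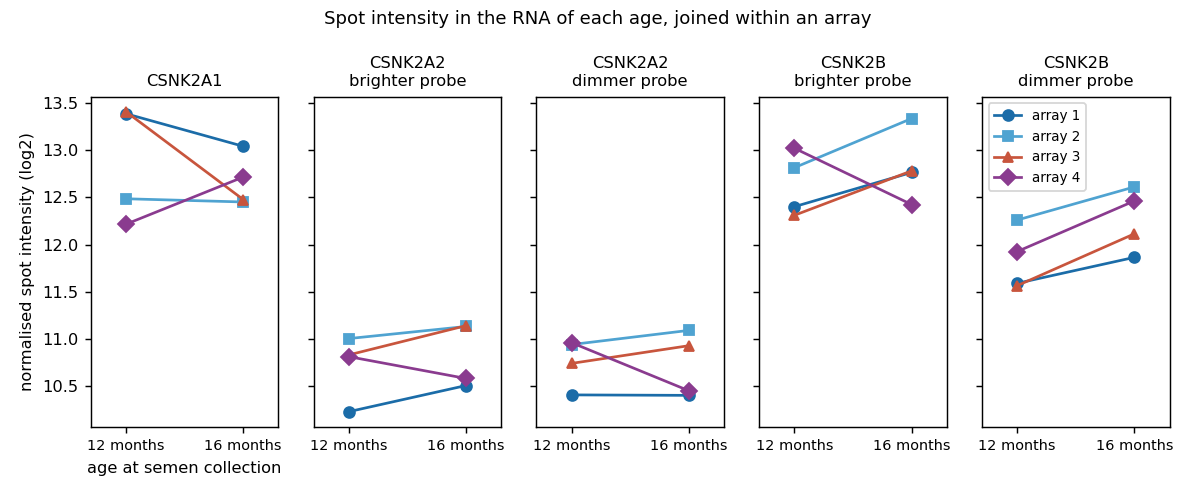
The y axis gives the normalised spot intensity (log2) of each probe in the 12-month RNA (left) and the 16-month RNA (right), with lines joining the 2 channels of an array. The lines of CSNK2A1 slope down on arrays 1 to 3 and up on array 4, those of the brighter CSNK2B probe do the reverse, and those of the dimmer CSNK2B probe all slope up towards 16 months.

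The gap between the CSNK2B probes came from array 4 and depended on how the pixels of a spot were summarised. On that array the ratios of the brighter and the dimmer probe differed by 1.13, while on arrays 1 to 3 they differed by -0.088, -0.17 and 0.078. The root mean square difference was 0.58, and 92.5% of the genes with exactly 2 tested probes had a smaller one. These values use the median pixel of each spot, the summary used throughout.

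With the mean pixel in its place, the dimmer CSNK2B probe stood at -0.33, -0.35, -0.49 and 0.14 on arrays 1 to 4, and was no longer below 0 on every array. The brighter probe stood at -0.21, -0.41, -0.49 and 0.33, so the pair had the same sign on each array. The root mean square difference between them was then 0.12, against a median of 0.21 over the same 1764 genes. The mean over arrays of the dimmer probe was -0.26 with mean pixels, against -0.43 with median pixels, and that of the brighter probe was -0.20 against -0.19.

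The scanner values of the dimmer CSNK2B spot on array 4 show where the summaries part. In the 12-month channel its mean pixel was 5195 and its median pixel 4634. In the 16-month channel its mean pixel was 3586 and its median pixel 4931. Over the set, 20 readings of a spot on an array were made, and in 19 of them the mean pixel was below the median pixel in both channels. The dimmer CSNK2B spot on array 4 was the exception. On array 4 only 0.411% of the tested probes shifted as much between the summaries as this probe. Of all 1690 probes below 0 on every array with median pixels, 537 (31.8%) were also below 0 on every array with mean pixels. Which summary is closer to the RNA was not tested.

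**Figure D3:**
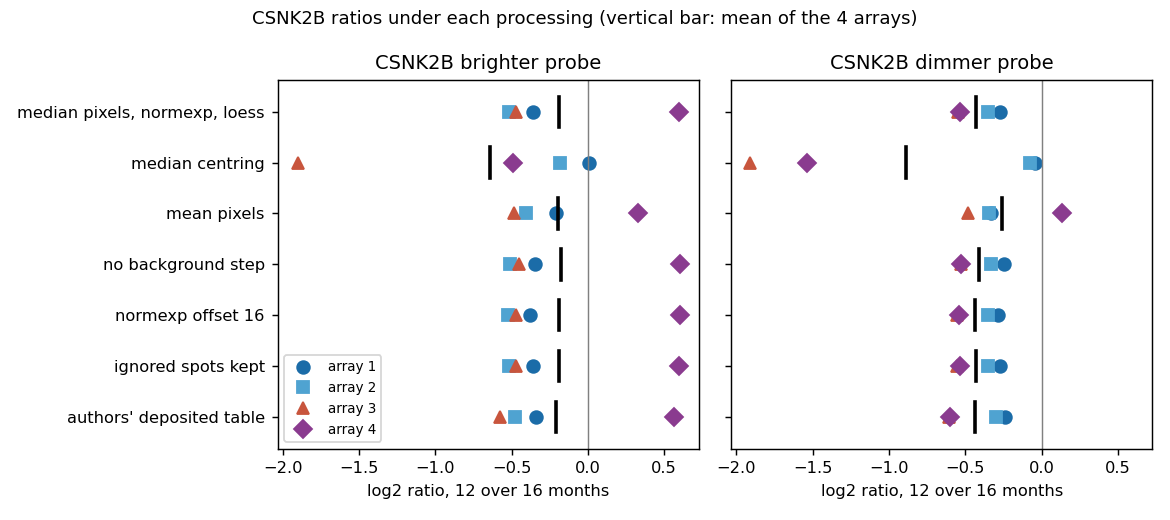
The x axes give the log2 ratio of 12 over 16 months of the brighter (left) and dimmer (right) CSNK2B probe, with a row for each way of processing, a symbol for each array and a vertical bar at the mean of the 4 arrays. Array 4 of the dimmer probe lies at -0.54 with median pixels and at 0.14 with mean pixels, while median centring in place of loess moves array 3 to -1.90 for the brighter and -1.91 for the dimmer probe.

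The ratios of the surrounding spots on the slide were measured too. Among the 72 to 84 tested probes within 5 rows and columns of a member spot, the median log2 ratio of an array lay between -0.16 and 0.13 over all members and arrays. Around the dimmer CSNK2B spot on array 4 it was -0.16, and around the brighter one it was -0.040. Around the CSNK2A1 spot on array 3 it was -0.017, against 0.93 for the spot itself. Around the dimmer CSNK2A2 spot it was 0.13, -0.019, -0.024 and 0.034 on arrays 1 to 4, with the sign of the probe on each array. None of the other member spots shared its sign with the surrounding spots on every array. The part of slide position in the members' values was not tested.

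The catalytic alpha subunit stood opposite in sign to the brighter probes of the other subunits on 4 of 4 arrays, and to each of their dimmer probes on 3 of 4. CSNK2A1 was above 0 on arrays 1 to 3 and below 0 on array 4, while the brighter probes of CSNK2A2 and CSNK2B were below 0 on arrays 1 to 3 and above 0 on array 4. The ratio of the brighter CSNK2B probe minus that of CSNK2A1 was -0.71, -0.56, -1.40 and 1.10 on arrays 1 to 4, with a mean of -0.39 ± 1.06 (SD, n = 4). For the dimmer CSNK2B probe minus CSNK2A1 the values were -0.62, -0.39, -1.48 and -0.037, with a mean of -0.63 ± 0.62. On array 4 both CSNK2A1 and the dimmer CSNK2B probe were below 0. CSNK2A1 minus the dimmer CSNK2A2 probe gave 0.34, 0.18, 1.12 and -1.01, and on array 1 both were above 0. Between the CSNK2B and CSNK2A2 brighter probes the differences were smaller, at -0.086, -0.39, -0.16 and 0.37.

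Such sign patterns were not rare on these arrays. Of 11960 named genes tested, each by its brightest probe, 8.16% were below 0 on arrays 1 to 3 and above 0 on array 4, and 8.50% showed the opposite order. The signs of CSNK2A1 and of the brighter CSNK2A2 and CSNK2B probes were the same with mean pixels and in the authors' deposited table. The dimmer CSNK2B probe changed sign on array 4 with mean pixels. With median centring CSNK2A1 and the brighter CSNK2B probe had opposite signs on 1 of 4 arrays. The differences between them kept their order, at -0.81, -0.50, -1.36 and 1.05. These probes are of nearly the same brightness, so either scaling shifts both almost alike and their difference could hardly change.

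The dye offered a comparison that had not been used to choose the members. The dye coefficient is the log2 ratio of Cy5 over Cy3 that remains after loess with age in the model. It was -0.013 for CSNK2A1 (95% confidence interval -0.56 to 0.53), -0.082 for the brighter CSNK2A2 probe (-0.36 to 0.19) and -0.12 for the dimmer (-0.43 to 0.20). It was -0.25 for the brighter CSNK2B probe (-0.68 to 0.17) and 0.12 for the dimmer (-0.080 to 0.31). None of the 5 passed limma's test with Benjamini-Hochberg adjustment over all probes, with adjusted p from 0.625 to 0.989. Over all probes 0% passed an adjusted p of 0.05 for the dye, with a smallest adjusted p of 0.168, and 3318 had an unadjusted p under 0.05. With median centring the coefficient was 0.80 for CSNK2A1 with an adjusted p of 0.0281 in limma. In that setting 8422 of 30986 probes (27.2%) passed the same threshold for the dye.

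The brightness of the members mattered for the scaling. With median centring in place of loess the means were -0.24 for CSNK2A1, -0.57 and -0.40 for the brighter and dimmer CSNK2A2 probes and -0.64 and -0.89 for the brighter and dimmer CSNK2B probes. The 500 probes closest to each in brightness had median ratios between -0.49 and -0.45, and the median of all tested probes was -0.14. Relative to probes of like brightness the members stood at 0.21, -0.10, 0.078, -0.19 and -0.40 in the same order, near the loess values. Loess also removes the trend of the ratios with brightness. This nearness therefore follows from the method and is no separate check of the loess values.

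Genes with the most similar ratios over the 4 arrays were found by the root mean square difference to each subunit's brightest probe, among 11234 named genes. For CSNK2A1 these were PNPLA6, a phospholipase, CL46, a bovine collectin, MICAL2, PHF19 and OTUD4, with differences of 0.056 to 0.089 against a median of 0.60. For CSNK2A2 they were TOMM6, a part of the mitochondrial import pore, TMEM120B, AK6, PDIA5 and ANXA2, with differences of 0.023 to 0.040 against a median of 0.32. For CSNK2B they were AHCY, which breaks down S-adenosylhomocysteine, STT3B, GPX4, COX8B and TMEM14C, with differences of 0.082 to 0.12 against a median of 0.53. The measure rests on 4 arrays, and the genes were chosen for their likeness, so no test was made.

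The genes next to CSNK2B in the RefSeq gene order of assembly ARS-UCD2.0 had mixed patterns. LY6G5B, directly before it, had log2 ratios of 0.048, 0.28, -0.037 and -0.071 on arrays 1 to 4. GPANK1, directly after it, had -0.35, 0.22, -0.17 and -0.56. The means of the further neighbours ABHD16A, LY6G6E, APOM and BAG6, a chaperone of membrane proteins, were -0.085, 0.070, -0.053 and 0.13. ABHD16A had -0.0076, -0.14, -0.35 and 0.15 on arrays 1 to 4, with the sign of the brighter CSNK2B probe on each array. That sign pattern was found in 8.16% of the 11960 named genes tested, so nothing is read from it. The other named neighbours did not share all of these signs.

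The known clients, partners and substrates of CK2 had no common direction in their mean ratios. Of 61 such genes in 8 lists, 54 had a tested probe, and 28 of them had a mean above 0 and 26 below. None passed the adjusted threshold for age in limma, as for 0% of all probes, and 6 of the 54 had an unadjusted p under 0.05, against 753 of the 11960 genes. Their median log2 ratio was 0.0063, against 0.00041 over all 11960 genes tested. Of the 54, 8 (14.8%) were below 0 on all 4 arrays and 1 (1.85%) was above. Over the 11960 genes these shares were 5.98% and 4.61%. Of all probes below 0 on every array with median pixels, only 31.8% were so with mean pixels too, and the difference in shares was not tested.

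CDC37, the kinase co-chaperone that CK2 activates by phosphorylation, stood at -0.051 ± 0.27, the lowest of 6 chaperone genes, and the endoplasmic HSP90B1 at 0.11 ± 0.28, the highest. HSP90AA1 and HSP90AB1, the cytosolic chaperones that CDC37 serves, varied strongly, from 0.39, 0.78, -0.81 and -0.14 for HSP90AA1 to 0.38, 0.64, -0.71 and 0.11 for HSP90AB1 on arrays 1 to 4. They were above 0 on arrays 1 and 2, where the dye orientation is shared, and below 0 on array 3. The list median was 0.047.

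The FACT complex, a histone chaperone that CK2 binds, gave unequal values for its subunits. SSRP1 had -0.025, -0.19, -0.35 and -0.34 on arrays 1 to 4, with a mean of -0.23 ± 0.15, the lowest of 7 genes of chromatin. Its partner SUPT16H averaged 0.077 ± 0.13, and the remodeller CHD1 was the highest at 0.078 ± 0.14. The list median was 0.018.

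The R2TP and TTT complexes, which assemble large kinases and in which PIH1D1 recognises TELO2 phosphorylated by CK2, also had values on both sides. RUVBL2, an ATPase of R2TP, had -0.43, -0.39, -0.097 and -0.34 and a mean of -0.31 ± 0.15, the lowest of 6. PIH1D1 was even, at -0.13, -0.15, -0.15 and -0.17, with further probes between -0.13 and 0.081 in mean. TELO2 was the highest at 0.22 ± 0.45, with 0.33, 0.043, 0.78 and -0.27 on arrays 1 to 4. Its order of arrays was that of CSNK2A1, as was that of DVL2 among the WNT, PI3K and NF-kB substrates. This likeness was picked out after the values were seen, and its share over all genes was not counted. The list median was 0.0063.

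Among 8 nucleolar substrates RRN3, an initiation factor of RNA polymerase I, was the highest at 0.36 ± 0.45 and TCOF1 the lowest at -0.15 ± 0.22, with a median of 0.072. Among 8 translation substrates RPLP1, a protein of the ribosomal stalk, was the lowest at -0.34 ± 0.27, with arrays at -0.72, -0.12, -0.33 and -0.20, and the elongation factor subunit EEF1D was the highest at 0.084 ± 0.29. That list had a median of -0.061. Of the WNT, PI3K and NF-kB substrates 5 were tested, with CTNNB1 (beta-catenin) lowest at -0.13 ± 0.23, the inhibitor NFKBIA highest at 0.090 ± 0.20 and a median of -0.047.

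Of the DNA repair and cell death substrates 5 were tested, with a median of -0.00040. BID, a cell death protein that CK2 phosphorylation shields from caspase cleavage, was the lowest at -0.35 ± 0.26, and the repair scaffold XRCC1 was the highest at 0.12 ± 0.19. Of 9 cell cycle substrates MYC was the highest at 0.56 ± 0.42, with arrays at 0.78, 1.05, 0.17 and 0.25, the 1 client above 0 on all 4 arrays, and the ubiquitin-conjugating enzyme CDC34 was the lowest at -0.13 ± 0.095. That median was -0.027 (SD, n = 4 for each gene).

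The CK1 kinases, which share the casein kinase name but belong to another kinase family, were set beside the subunits. Of 6 genes 4 had a tested probe, 2 above and 2 below 0 in mean. In limma 0 passed the adjusted or unadjusted threshold, against 0 and 753 of all 11960 genes tested. CSNK1G3 was the lowest at -0.15 ± 0.22 and CSNK1E the highest at 0.14 ± 0.19 (SD, n = 4), with a median of 0.042. None of the 4 had 1 sign on all arrays, where 5.98% of all genes were below 0 and 4.61% above 0 on all 4. With 4 genes nothing is read from this.

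**Figure D4:**
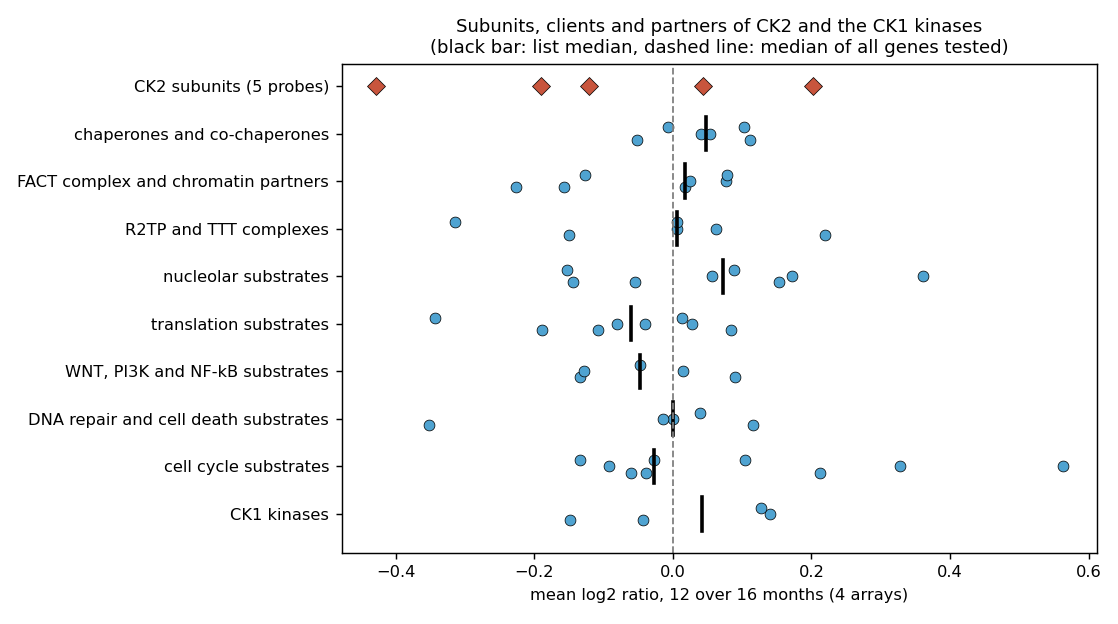
The x axis gives the mean log2 ratio of 12 over 16 months over 4 arrays. Diamonds are the 5 probes of the CK2 subunits and circles the genes of each list by their brightest probe, with a black bar at the list median and a dashed line at the median of all genes tested. The subunit probes run from -0.43 to 0.20, and the list medians lie between -0.061 and 0.072.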

How the data were processed

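Total RNA had been amplified and labelled with Cy3 or Cy5, per the labels' protocols. The deposited files give spot intensity at 532 nm (Cy3) and 635 nm (Cy5) without background subtraction, per the file headers. The authors' deposited table of log2 ratios tracked the Cy5 over Cy3 ratio of the matching array across tested probes (r = 0.855 on array 3 and 0.986 to 0.988 on the others) and column medians of -0.016, -0.0019, -0.012 and -0.0063. It was turned to 12 over 16 months. Its background step is not known, and limma is named in the submitters' processing notes without a version.

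Median pixels were corrected with normexp (offset 50) and normalised by loess within arrays, leaving out ignored spots (13, 10, 64 and 818 on arrays 1 to 4). Intensities of a channel were scaled between arrays by A-quantile. Probes above the negative controls in at least 4 of 8 channel signals were fitted with limma 3.58.1 in R 4.3.3, with coefficients for age and dye, two-sided, and Benjamini-Hochberg adjustment. Each array pairs the ages within itself, and the number of arrays limits the precision. The procedure was tested on simulated data. The changes put in were all larger than any member's mean ratio, so that test does not cover changes of the members' size.

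The members and lists were chosen with earlier results of these data known. A gene was represented by its brightest probe. The text names all member probes, the highest and lowest gene of each list, the 5 most similar genes of each subunit and 3 neighbours of CSNK2B on each side. PIH1D1, SUPT16H, DVL2, the cytosolic HSP90 genes and the other cumulus and granulosa markers were named after their values were seen. Platform symbols, 1 for 21790 probes and none for 22004, were updated through RefSeq. The named probes fell into 20068 with an up-to-date symbol, 1646 updated and 76 without a match.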

Additional observations from a re-analysis of the deposited data

Results flagged for a closer look

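The array ratios, intensities and list medians of the report, 50 sets of 4 arrays, were examined for an array far from the other 3, and 2 were marked. Chance marks about 1 in 20 such sets. The brighter CSNK2B probe stood at 0.597 on array 4, against -0.363, -0.521 and -0.471 on arrays 1 to 3. The gap to the nearest array made up 0.859 of the whole range. The dimmer CSNK2B probe stood at -0.54 on that array with median pixels and at 0.14 with mean pixels. NFKBIA stood at 0.391 on array 1, against 0.018, -0.028 and -0.021 on arrays 2 to 4.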

How the results depend on the processing

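The mean ratios of CSNK2A2 and CSNK2B were below 0 in 11 of 11 alternatives. These used the brighter probe, except where the mean over all probes of a gene was taken. All alternatives reuse the same 4 arrays, and both brighter probes changed sign between arrays, so such counts do not settle a direction. The share of all genes that kept their sign was not counted. The mean of CSNK2A1 was above 0 in 9 of 11, with a range from -0.24 to 0.44. As CSNK2A1 has a lone probe, the mean over all probes repeats its main value. The exceptions for CSNK2A1 were median centring (-0.24) and the means without array 3 (-0.040). The dimmer CSNK2A2 probe was above 0 in 7 of 10, and below 0 with median centring (-0.40), with mean pixels (-0.041) and without array 4 (-0.11). The mean of the dimmer CSNK2B probe was below 0 in 10 of 10, from -0.89 to -0.26, but its common sign on all 4 arrays was lost with mean pixels. Its means with 1 array left out had to lie below 0, because each array did. As the set was chosen on this probe's ratio, nothing is read from that count. Taking the mean over all probes of a gene left CSNK2A2 at -0.038 and CSNK2B at -0.31.

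Median centring in place of loess moved CSNK2A2 to -0.57, the client and partner median to -0.36 and the CK1 median to -0.28, where the median of all genes was -0.21. Relative to all genes the last 2 were -0.14 and -0.062. It put 3509 probes below 0 and 812 above 0 on all 4 arrays, against 1690 and 1470 with loess, and 8422 probes past the threshold for the dye. Dye coefficients changed sign with it, to 0.80 for CSNK2A1, 0.49 for CSNK2A2 and 0.55 for CSNK2B. With mean pixels that of CSNK2A1 was 0.082. With 1 array left out, dye coefficients ran from -0.37 to 0.34 for CSNK2A1, -0.22 to 0.054 for CSNK2A2 and -0.52 to 0.015 for CSNK2B. Leaving out 1 array gave 0 to 27 probes past the threshold for age, with 24 without array 3, 27 without array 4 and 0 without array 1 or 2. For the dye it gave 0 to 110. In each of these fits 1 dye orientation is left with a lone array, assumed to vary like the others. Between 3233 and 3962 probes were then below 0 on the 3 remaining arrays, a weaker condition. Without a filter on dim probes 2539 were below 0 on all 4, as more probes entered. Apart from these constructions the cause was not tested.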
